A study of Caenorhabditis elegans with 37 samples.

Results

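The 7 genes described here make, load, recycle and break down the transmitter acetylcholine in Caenorhabditis elegans. They are unc-17, cha-1, cho-1, ace-1, ace-2, ace-3 and ace-4. They were taken by symbol for their known roles, with earlier results of these data known, and all 7 were found among the 30631 genes of the deposited count table. Transcripts were counted by RNA-seq in 37 libraries made from worm cells that a flow sorter had separated. There were sorts of 8 single neuron types: the chemosensory neurons ASG (4 libraries), AWA (4) and AWB (5), the interneurons AVE (3) and AVG (3), the GABAergic motor neurons DD (3) and VD (4), and the nociceptor PVD (2). They were set against a pan-neuronal sort with a rab-3 marker (5 libraries) and an all-cell sort that used stains for living and dead cells alone (4 libraries). All animals were untreated, and the labels used here name no strain, allele, stage or marker transgene for the single-type sorts. Libraries are named by their group and the number in their title, and the labels do not tell whether those of 1 group had separate cultures, so the spread behind each p-value may be technical.

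Acetylcholine is the main excitatory transmitter of worm motor circuits. Choline acetyltransferase, encoded by cha-1, joins choline to an acetyl group, the vesicular transporter UNC-17 loads the product into synaptic vesicles, and the high-affinity transporter CHO-1 returns choline to the terminal after use. Acetylcholinesterases, encoded by the ace genes, split the transmitter. In the worm ACE-1 is known mainly from muscle and ACE-2 mainly from neurons, ACE-3 adds a minor activity, and no enzyme activity is known for ACE-4. Published transmitter maps call AVE, AVG and AWB cholinergic, ASG and PVD glutamatergic and DD and VD GABAergic, and they assign AWA no classical transmitter.

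Library totals ran from 251586 to 5415925 counts (median 1638118). The defining markers of the sorted types were above the pan-neuronal mean for 8 of 8 genes in ASG, 5 of 5 in AWA, 6 of 6 in AWB, 5 of 6 in DD, 7 of 8 in PVD and 5 of 6 in VD. They were above it for only 3 of 6 in AVE and 2 of 3 in AVG, and none of the markers was at 0 in its own type. In the edgeR test described below, 0 of the 6 AVE markers were called higher and 0 lower in AVE than in pan-neuronal libraries (median log2 0.04). Of all genes tested, 13.1% were higher and 20.5% lower there. In AVG 4 of these 6 markers were higher and 2 lower (median 2.78), where 11.7% of all genes were higher and 19.7% lower. The AVE marker list, which includes glr-1, summed to 590 ± 249.9 CPM in AVE (SD, n = 3), against 2967 ± 2168 in AVG (SD, n = 3), 490 ± 22.4 in pan-neuronal (SD, n = 5) and 215 ± 350.0 in all-cell libraries (SD, n = 4). Levels are in CPM, in which library totals were adjusted by edgeR's TMM factors. AWB 51 and AWA 20 were the lowest of their groups in their own markers, with 140 CPM summed over the AWB list in AWB 51 (1087 to 4176 in the other AWB libraries) and 1452 CPM summed over the AWA list in AWA 20 (3907 to 15579 in the other AWA libraries). The library all-cell 27 stood apart in neuronal genes, with 2259 CPM summed over 13 vesicle genes that all neurons use, against 579 to 928 CPM in the other all-cell libraries. In bulk samples, fewer cells of a type and less RNA per cell cannot be told apart.

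The annotation used for positions is that of the assembly WBcel235, matched by gene identifier. unc-17 (WBGene00006756, IV:3618259-3624699, minus strand) and cha-1 (WBGene00000481, IV:3613931-3624697, minus strand) form a single cholinergic locus, in which the other exons of unc-17 lie inside the first intron of cha-1. They share 66 exon bases, the first exon of both, so reads from that stretch cannot be given to either gene. cho-1 (WBGene00000501) lies at IV:13209730-13214566 on the minus strand, and ace-1 (WBGene00000035) lies at X:16367293-16373789 on the plus strand. ace-2 (WBGene00000036, I:3301368-3307935, minus strand) shares 42 exon bases with Y44E3A.7 on the same strand. ace-4 (WBGene00000038, II:14198046-14205460) and ace-3 (WBGene00000037, II:14205635-14210214) follow each other on the plus strand with 174 bases between them, an arrangement known as an operon. Genes on the opposite strand overlap the span of ace-3 without sharing an exon with it. The sources used here do not state whether counting used strand.

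All 3 supply genes and 3 of the 4 ace genes were higher in pan-neuronal than in all-cell libraries. In this comparison 6 of the 7 genes were higher and 0 were lower at an adjusted p under 0.05 (edgeR quasi-likelihood test, Benjamini-Hochberg adjustment over all genes tested), where 32.2% of the 15181 genes tested were higher and 26.9% were lower. The median log2 difference was 3.25 over the 7 genes and 0.000126 over all genes tested. unc-17, the vesicular transporter gene, had 653, 571, 601, 679 and 657 CPM in the pan-neuronal libraries, against 168, 37.2, 25.4 and 36.1 CPM in the all-cell libraries. cha-1, the acetyltransferase gene, had 495, 515, 535, 478 and 491 CPM in the pan-neuronal libraries, against 152, 34.6, 26.5 and 31.8 CPM in the all-cell libraries. The groups did not overlap for either gene, and all-cell 27 was the highest all-cell library for both. The log2 difference was 3.25 ± 0.55 (SE) for unc-17 (adjusted p = 1.1e-05) and 3.05 ± 0.57 (SE) for cha-1 (adjusted p = 4.0e-05).

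cho-1, the choline transporter gene, had 657, 459.9, 469, 494.5 and 426 CPM in the pan-neuronal libraries, against 61.8, 30.1, 26.5 and 38.5 CPM in the all-cell libraries. The groups did not overlap, and cho-1 was higher in pan-neuronal libraries by 3.68 ± 0.52 (SE, adjusted p = 9.7e-07). ace-3 gave the largest of the 7 differences, 3.88 ± 0.40 (SE, adjusted p = 9.6e-09), with 224 to 293 CPM in pan-neuronal and 11.7 to 21.2 CPM in all-cell libraries. ace-4 was higher by 3.51 ± 0.51 (SE, adjusted p = 1.4e-06), with 24.4 to 43.4 CPM in pan-neuronal and 0.835 to 3.55 CPM in all-cell libraries. ace-1 was scarce in both groups, with 5.81 to 12.96 CPM in pan-neuronal and 1.69 to 5.32 CPM in all-cell libraries. Its log2 difference was 1.64 ± 0.64 (SE, adjusted p = 0.028), and the call was lost without all-cell 29 (1.39) or all-cell 30 (1.38) and with scaling by library totals alone (1.17, adjusted p = 0.13, with 0.0079 to 0.13 over the alternatives).

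ace-2 was the exception. It had 184, 259, 244, 242 and 263 CPM in the pan-neuronal libraries, against 327, 47.9, 19.2 and 31.3 CPM in the all-cell libraries. A single library, all-cell 27, lay above every pan-neuronal library, while the other all-cell libraries lay below all of them. The log2 difference of 1.17 ± 0.55 (SE) did not pass (adjusted p = 0.067). Without all-cell 27 it was 2.87 (adjusted p = 1.9e-05, with 1.9e-05 to 0.22 over the libraries left out in turn). It passed in 15 of the 37 fits that each left out 1 library, among them those without all-cell 27 and pan-neuronal 11 (1.37), and without AWA 20 and AWB 51 together (1.25).

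**Figure D1:**
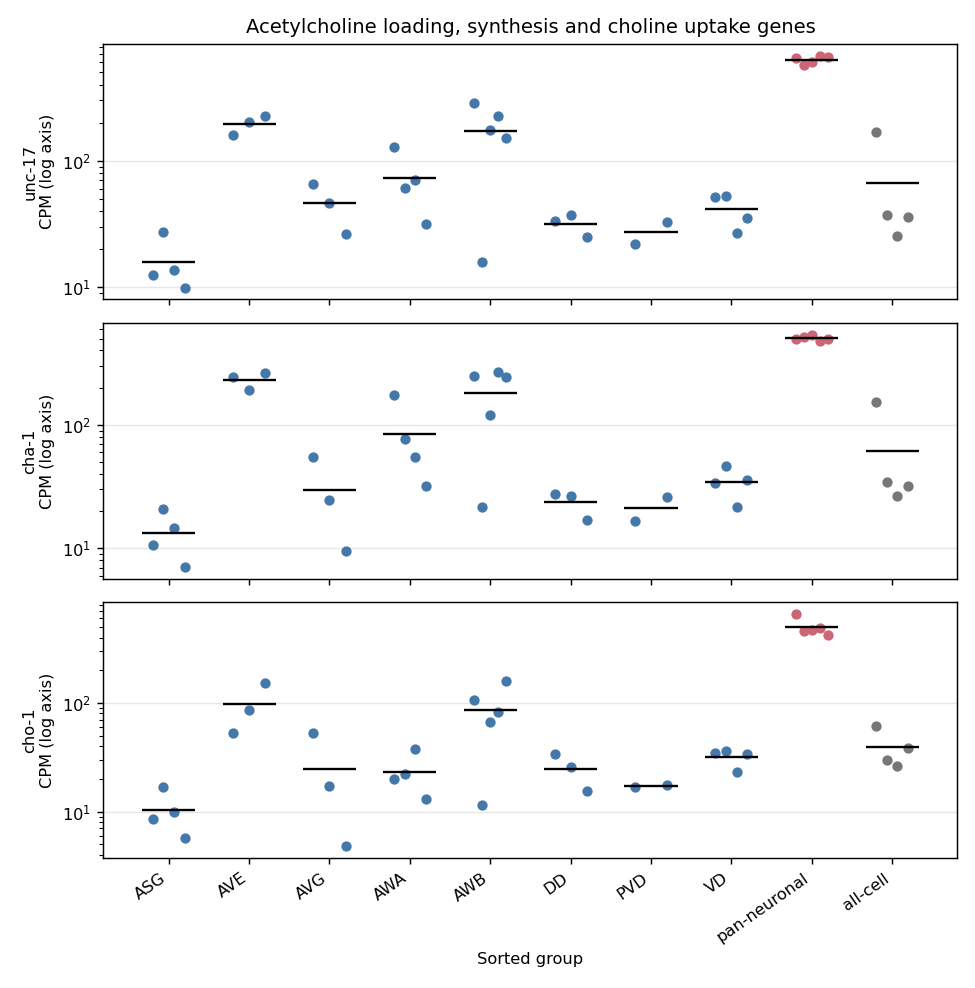
CPM (log axis) of unc-17, cha-1 and cho-1 in each library, by sorted group, with a black bar at each group mean. The pan-neuronal libraries lie above all others for each of the 3 genes, AVE and AWB are the highest single types, and AWB 51 (15.8 CPM of unc-17) lies far below the other AWB libraries.

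Each single type was then set against the pan-neuronal sort, which pools all transmitter classes. Of 56 such tests, 45 found a gene lower in the type and 0 found one higher. The genes unc-17, cho-1 and ace-3 were lower in all 8 types, cha-1, ace-2 and ace-4 were lower in every type other than AVE, and ace-1 was lower in none. In AVE 3 of the 7 genes were lower and 0 were higher, and in every other type 6 were lower and 0 were higher. Of all genes tested, those lower than in pan-neuronal libraries made up 20.8% in ASG, 20.5% in AVE, 19.7% in AVG, 19.8% in AWA, 24.1% in AWB, 20.8% in DD, 13.8% in PVD and 28.5% in VD. Those higher made up 16.8% in ASG, 13.1% in AVE, 11.7% in AVG, 18% in AWA, 19.6% in AWB, 18.3% in DD, 8.84% in PVD and 27.7% in VD. These 8 comparisons share the same 5 pan-neuronal libraries. The median log2 difference over the 7 genes lay between -4.56 in PVD and -1.69 in AVE, against -0.12 (AVE) to 0.21 (AWA) over all genes tested.

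Some markers of other tissues were higher in the same comparisons with pan-neuronal libraries, though not those of every tissue in every type. Of 12 body-wall muscle genes, 7 were higher in ASG, 7 in AVE, 8 in AVG, 4 in AWA, 8 in AWB, 8 in DD, 2 in PVD and 10 in VD, and 1 was lower, in AWB. Of 6 genes each, up to 5 pharyngeal muscle genes (DD and VD), 5 hypodermal genes (AVG and VD), 4 intestinal genes (AWA, DD and VD) and 2 germline genes (AVE, AVG, DD and VD) were higher. The body-wall muscle list summed to a mean of 9579 CPM in AWA and 11839 CPM in AWB, below 12709 ± 1521 CPM in pan-neuronal libraries (SD, n = 5). In the other types its mean was between 13632 (AVG) and 27809 CPM (AVE). The hypodermal list summed to a mean between 411 (ASG) and 1989 CPM (AVG) over the types, against 339 ± 111 CPM in pan-neuronal libraries (SD, n = 5). The intestinal list summed to a mean between 883 (AWB) and 3243 CPM (AWA), against 399 ± 116 CPM in pan-neuronal libraries (SD, n = 5). In AWB 1 intestinal and 2 germline genes were lower, and in ASG no hypodermal, pharyngeal or germline gene was called in either direction. Besides, 0 pharyngeal genes were higher in AVG and PVD, 0 intestinal genes in AVE, and 0 germline genes in AWA and PVD. The 2 germline genes of 6 in VD made a share near the 27.7% of all genes tested that were higher there. The germline list summed to 1397 ± 319 CPM in AVE (SD, n = 3) and 1370.1 ± 229 CPM in AVG (SD, n = 3), with means of 153 to 457 CPM in the other types, against 196 ± 26.98 in pan-neuronal (SD, n = 5) and 1716 ± 562 CPM in all-cell libraries (SD, n = 4). None of these genes was at 0 in any group. The part of other tissues in the lower levels of the 7 genes was not tested.

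unc-17 split the types into levels. AVE libraries 40, 41 and 42 had 159, 203 and 225 CPM of it, and AWB libraries 50 to 54 had 289, 15.8, 177, 226 and 152 CPM. AWA libraries 17 to 20 had 128, 61.4, 70.5 and 31.8 CPM, and AVG libraries 43, 44 and 45 had 65.9, 46.4 and 26.4 CPM. AVE lay wholly above AWA and AVG, while AWB 51 alone took the AWB range down into that of the types not called cholinergic. The VD libraries had 51.3, 53.1, 26.99 and 35.3 CPM of unc-17, and the DD libraries had 33.5, 37.1 and 25.1 CPM. It was at 21.9 and 32.6 CPM in the PVD libraries and at 12.6, 27.2, 13.7 and 9.90 CPM in the ASG libraries. Every one of these libraries was below the lowest pan-neuronal library, at 571 CPM.

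The log2 difference of unc-17 from pan-neuronal libraries was smallest in AVE (-1.69 ± 0.57, SE, adjusted p = 0.020) and AWB (-1.88 ± 0.48, adjusted p = 0.0019). It was -3.12 ± 0.54 in AWA, -3.74 ± 0.65 in AVG, -3.93 ± 0.56 in VD, -4.31 ± 0.66 in DD, -4.56 ± 0.82 in PVD and -5.32 ± 0.62 in ASG (SE, adjusted p between 2.4e-08 and 0.00015 in these 6 types). The AVE call was lost without AVE 40 (-1.72, adjusted p = 0.058, with 0.0048 to 0.058 over the libraries left out in turn). Ranked by mean level, the types ran AVE, AWB, AWA, AVG, VD, DD, PVD and ASG. No neighbours in that order differed past the threshold, and their libraries overlapped at every step.

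cha-1 repeated that order with AVG and VD exchanged. It had 246, 191 and 261 CPM in the AVE libraries and 248, 21.6, 120.0, 267 and 244 CPM in the AWB libraries, against 478 to 535 CPM in the pan-neuronal libraries. The means of the remaining types were 84.5 ± 62.5 in AWA (SD, n = 4), 34.5 ± 10.1 in VD (SD, n = 4), 29.5 ± 22.9 in AVG (SD, n = 3), 23.8 ± 5.92 in DD (SD, n = 3), 21.4 ± 6.65 in PVD (SD, n = 2) and 13.3 ± 5.90 CPM in ASG (SD, n = 4). AVE libraries did not overlap the pan-neuronal libraries, but the difference of -1.11 ± 0.58 (SE) did not pass (adjusted p = 0.14). It passed when only these 2 groups were fitted (-0.99, adjusted p = 0.00025, with 0.00025 to 0.20 over the alternatives). AWB was lower by -1.48 ± 0.49 (SE, adjusted p = 0.015), and the other 6 types by -2.58 to -5.24.

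cho-1 followed the same pattern at lower values. Its counts came to 52.9, 86.6 and 154 CPM in the AVE libraries and 107, 11.5, 67.1, 82.2 and 158 CPM in the AWB libraries, against 426 to 657 CPM in the pan-neuronal libraries. The other 6 types had means between 10.3 ± 4.72 (ASG, SD, n = 4) and 31.9 ± 5.86 CPM (VD, SD, n = 4). AWA ranked below VD, AVG and DD for cho-1, with 23.2 ± 10.5 CPM (SD, n = 4). The log2 difference of cho-1 from pan-neuronal libraries was -2.35 ± 0.54 in AVE (SE, adjusted p = 0.0011), -2.56 ± 0.45 in AWB (SE, adjusted p = 3.3e-05) and -3.97 to -5.61 in the other 6 types.

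The general vesicle genes, which include rab-3, the marker of the pan-neuronal sort, also differed between groups. Their summed level was 2859 CPM in ASG, 3136 in AVE, 6105 in AVG, 3126 in AWA, 2176 in AWB, 9061 in DD, 7637 in PVD and 5790 in VD libraries, against 9219 in pan-neuronal and 1111 in all-cell libraries. Per 1000 CPM of that list, a scale added after the values were seen, unc-17 came to 63.7 ± 14.9 CPM in AVE (SD, n = 3) and 74.01 ± 33.9 in AWB (SD, n = 5), against 69.0 ± 8.58 in pan-neuronal (SD, n = 5) and 53.8 ± 18.4 in all-cell libraries (SD, n = 4). On the same scale AWA had 23.0 ± 4.14 (SD, n = 4), AVG 11.3 ± 9.99 (SD, n = 3), VD 7.26 ± 1.87 (SD, n = 4), ASG 5.57 ± 2.44 (SD, n = 4), PVD 3.68 ± 0.53 (SD, n = 2) and DD 3.61 ± 1.09 CPM (SD, n = 3). AVE, AWB, pan-neuronal and all-cell libraries thus overlapped on it, and ASG, DD, PVD and VD lay wholly below them, with 9.19 as their highest value and 24.2 as the lowest in those 4 groups. The part of the vesicle genes in the results was not tested, nor was that of rab-3 in the pan-neuronal values on this scale.

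AWA, which the maps give no acetylcholine, ranked next after AVE and AWB for unc-17, and some AWB markers were present in its libraries. The AWB list summed to 2843, 1244, 245 and 170 CPM in AWA 17 to 20, against 57.0 to 254 CPM in pan-neuronal and 9.19 to 15.9 CPM in all-cell libraries. The AWB receptor gene str-220, at 841 CPM in AWB, was at 0 in all AWA libraries, and the list also holds odr-1 and tax-4, cyclic nucleotide signalling genes of several chemosensory neurons. The sum rested on few genes: against pan-neuronal libraries 1 of the 6 AWB genes was higher in AWA and 2 were lower (median log2 -1.80), and against all-cell libraries 2 were higher and 0 lower (median 1.22). The 1 of 6 is near the 18% of all genes tested that were higher in AWA than in pan-neuronal libraries, where 19.8% were lower. Against all-cell libraries 18.8% were higher and 13.6% lower. AWA 17 was the highest of the AWA libraries in unc-17 (128 CPM), in cha-1 (174 CPM) and in the AWB list. It was also the highest of them in the AWA list, at 15579 CPM against 1451.5 to 7644 CPM. The same held for the vesicle list, at 4552 CPM against 1329 to 3378.5 CPM. The part of AWB markers, AWA markers or vesicle genes in the AWA values was not tested.

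The 3 types called cholinergic were next compared as a class with the other 5 types, a grouping taken from published maps and not from the labels. In this comparison 5 of the 7 genes were higher in AVE, AVG and AWB and 0 were lower, where 5.81% of all genes tested were higher and 5.62% were lower. unc-17 was higher by 1.81 ± 0.30 (SE, adjusted p = 7.5e-05), cha-1 by 1.94 ± 0.32 (SE, adjusted p = 6.8e-05) and cho-1 by 1.61 ± 0.29 (SE, adjusted p = 0.00017). ace-3 was higher by 0.90 ± 0.23 (SE, adjusted p = 0.0067) and ace-4 by 2.26 ± 0.35 (SE, adjusted p = 2.3e-05). ace-2 (0.55 ± 0.35, SE, adjusted p = 0.35) and ace-1 (-0.96 ± 0.42, SE, adjusted p = 0.14) did not pass. The SE and p of these differences rest on the spread of libraries within groups, not on the spread between types. They hold for these 8 types and do not speak for cholinergic types in general. Mean unc-17 ran from 46.2 (AVG) to 196 CPM (AVE) within the class and from 15.8 (ASG) to 72.9 CPM (AWA) outside it. The median of the 7 differences was 1.61, against -0.14 over all genes tested, and the same 5 genes passed without any single library. Within the class, ace-4 averaged 42.4 CPM in AVE, 5.39 in AWB and 4.25 in AVG, against 2.46 over libraries of the other 5 types. ace-3 averaged 77.3 CPM in AVE, 29.96 in AVG and 18.7 in AWB, against 21.9 over libraries of the other 5 types. It was lower in AWB than in ASG (log2 1.05 ± 0.38 for ASG over AWB, SE, adjusted p = 0.038).

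The class difference was not shared by its members alike. unc-17 was lower in AVG than in AVE and AWB, with a log2 difference of 2.05 ± 0.64 for AVE over AVG (SE, adjusted p = 0.029) and of -1.87 ± 0.60 for AVG over AWB (SE, adjusted p = 0.032). The AVE over AVG call was lost without AVE 41 (2.02), AVE 42 (1.94), AVG 44 (2.06) or AVG 45 (1.80), and the AVG over AWB call without AVG 44 (-1.93), AVG 45 (-1.67) or AWB 50 (-1.66), and when the 2 groups were fitted alone (-1.96). No test of AVG against ASG, AWA, DD, PVD or VD passed for any of the 7 genes, although a p that misses the threshold does not show that they are alike. In AVE, by contrast, unc-17, cha-1 and cho-1 were each higher than in ASG, DD, PVD and VD, by 1.62 to 4.13 on the log2 scale. The same 12 tests passed for AWB, by 1.41 to 3.76, although AWB 51 lay within the range of those types for unc-17. AVE and AWB did not differ past the threshold for any of the supply genes (adjusted p between 0.71 and 0.86). Of the 28 pairs of types, 12 differed for unc-17, 12 for cha-1, 13 for cho-1, 7 for ace-1, 4 for ace-2, 10 for ace-3 and 7 for ace-4. The share over all genes tested was not taken for pairs of types. The counts of pair calls given here therefore cannot be set against it. Many of these pair calls moved: with each library left out in turn the number was 9 to 15 for unc-17, 10 to 17 for cha-1, 8 to 15 for cho-1, 2 to 12 for ace-1, 1 to 10 for ace-2 and 7 to 11 for ace-3, while it was 7 throughout for ace-4.

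Against the all-cell libraries the supply genes were higher in few types. Of 56 tests 10 found a gene higher in the type and 7 found one lower. In AVE 3 genes were higher (cha-1, ace-3 and ace-4) and 0 lower, where 8.62% of all genes tested were higher and 6.78% lower. In AWB 3 genes were higher (unc-17, cha-1 and ace-1) and 0 lower, where 16.3% were higher and 17.3% lower. In ASG 1 gene was higher (ace-3) and 4 were lower (unc-17, cha-1, cho-1 and ace-2), where 19.6% were higher and 20.1% lower. PVD had 1 gene higher (ace-1) and 1 lower (ace-2), where 10.2% were higher and 8.08% lower. DD had 1 gene higher (ace-1) and 0 lower, where 10.9% were higher and 8.33% lower, and VD had 1 higher (ace-1) and 0 lower, where 13.2% were higher and 8.17% lower. AVG had 0 higher and 1 lower (ace-2), where 10.5% were higher and 9.71% lower, and AWA had 0 higher and 1 lower (ace-2), where 18.8% were higher and 13.6% lower. These comparisons share the same 4 all-cell libraries, of which all-cell 27 was the highest in unc-17, cha-1, cho-1 and ace-2.

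Many of these calls rested on single libraries. The cha-1 difference in AVE was 1.94 ± 0.59 (SE, adjusted p = 0.024), and its call was lost without AVE 40 (1.93), AVE 42 (1.84), all-cell 28 (1.74), all-cell 29 (1.68) or all-cell 30 (1.72). unc-17 in AVE (1.56 ± 0.56, SE, adjusted p = 0.054) and cho-1 in AVE (1.32 ± 0.52, SE, adjusted p = 0.080) passed without all-cell 27 (2.57 for unc-17 and 1.63 for cho-1). The call also turned for unc-17 in 15 of the 37 fits without 1 library, that one included, and in the DESeq2 Wald test (1.47), and for both genes without AWA 20 and AWB 51 together (1.55 for unc-17 and 1.29 for cho-1). In AWB, unc-17 differed by 1.38 ± 0.51 (SE, adjusted p = 0.036) and cha-1 by 1.57 ± 0.54 (SE, adjusted p = 0.024). The unc-17 call in AWB was lost without AWB 50 (1.21), AWB 53 (1.35), all-cell 28 (1.18), all-cell 29 (1.10) or all-cell 30 (1.15), and the cha-1 call in AWB without all-cell 28 (1.38), all-cell 29 (1.32) or all-cell 30 (1.34). cho-1 in AWB (1.12 ± 0.48, SE, adjusted p = 0.068) passed without AWB 51 (1.41), AWB 52 (1.29) or all-cell 27 (1.42), and with DESeq2 size factors (1.22). cha-1 in AWA (0.47 ± 0.55, SE, adjusted p = 0.54) passed without all-cell 27 (1.44).

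In ASG the supply genes were lower than in all-cell libraries by -2.07 ± 0.56 for unc-17 (SE, adjusted p = 0.0036), -2.19 ± 0.59 for cha-1 (SE, adjusted p = 0.0036) and -1.93 ± 0.53 for cho-1 (SE, adjusted p = 0.0040). Without all-cell 27 the differences were -1.06 for unc-17 and -1.22 for cha-1, and neither passed, while cho-1 still passed. None of the 3 genes differed past the threshold from all-cell libraries in AVG, DD, PVD or VD, where their log2 differences lay between -1.54 and -0.30.

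unc-17 and cha-1 were measured in close proportion, as the plot of the 2 genes across libraries shows. Per kb of counted length, the ratio of unc-17 to cha-1 ran from 0.67 to 2.96 over the 37 libraries, with a median of 1.25. By group it averaged 0.92 ± 0.23 in AVE (SD, n = 3), 1.02 ± 0.26 in AWA (SD, n = 4), 1.04 ± 0.37 in AWB (SD, n = 5), 1.297 ± 0.22 in ASG (SD, n = 4), 1.31 ± 0.24 in VD (SD, n = 4), 1.38 ± 0.05 in PVD (SD, n = 2), 1.46 ± 0.15 in DD (SD, n = 3) and 2.10 ± 0.83 in AVG (SD, n = 3), against 1.36 ± 0.15 in pan-neuronal (SD, n = 5) and 1.15 ± 0.08 in all-cell libraries (SD, n = 4). The highest value came from AVG 45, where unc-17 had 11 counts and cha-1 had 4. The ratio of cho-1 to unc-17 per kb was lowest in AWA, at 0.36 ± 0.16 (SD, n = 4), followed by 0.44 ± 0.31 in AVG (SD, n = 3), 0.47 ± 0.18 in AVE (SD, n = 3) and 0.56 ± 0.30 in AWB (SD, n = 5). It was between 0.63 and 0.78 in ASG, PVD, DD and VD, against 0.78 ± 0.13 in pan-neuronal (SD, n = 5) and 0.80 ± 0.32 in all-cell libraries (SD, n = 4).

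**Figure D2:**
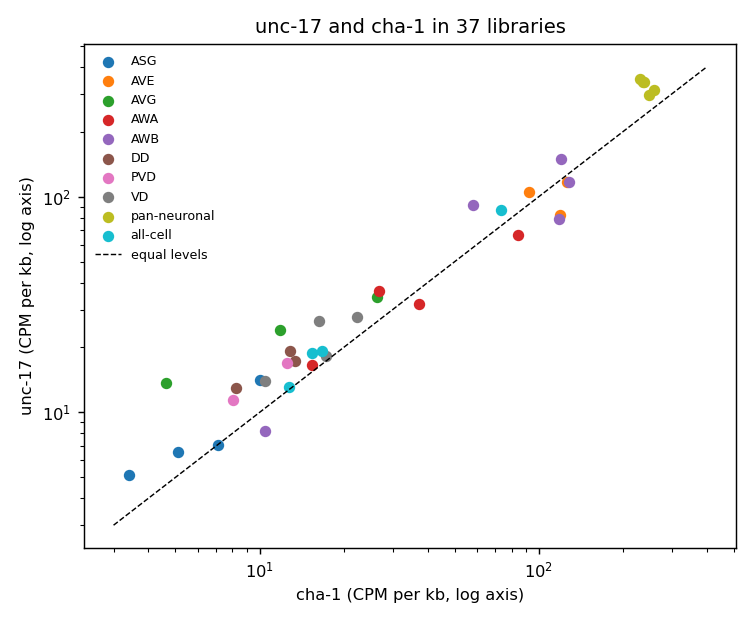
unc-17 against cha-1 in CPM per kb (both axes log) in the 37 libraries, coloured by group, with a dashed line at equal levels. The points follow the line, with ratios between 0.67 and 2.96, and most groups lie slightly above it.

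The ace genes did not move as a block, and ace-1 departed furthest from the others. It had 17.7 and 32.6 CPM in the PVD libraries, 33.5, 7.51 and 8.50 CPM in the DD libraries, 9.54, 22.1, 11.03 and 13.7 CPM in the VD libraries and 12.3, 15.8, 10.6, 9.53 and 12.8 CPM in the AWB libraries. The means of the other types were 4.87 ± 4.92 in AWA (SD, n = 4), 4.11 ± 1.27 in AVG (SD, n = 3), 3.45 ± 4.01 in ASG (SD, n = 4) and 2.81 ± 2.47 CPM in AVE (SD, n = 3), against 10.4 ± 2.76 in pan-neuronal (SD, n = 5) and 3.49 ± 1.94 CPM in all-cell libraries (SD, n = 4). All PVD, DD, VD and AWB libraries were above all AVE, AVG and all-cell libraries. With all libraries in the fit, no type differed past the threshold from pan-neuronal libraries in ace-1 (log2 -1.83 to 1.23, adjusted p from 0.053 to 0.77). The ASG difference of -1.51 ± 0.62 (SE, adjusted p = 0.053) passed without ASG 15 (-2.81) or pan-neuronal 12 (-1.66), and the AWA difference of -1.01 ± 0.59 (SE, adjusted p = 0.18) passed without AWA 20 (-1.996). The ASG difference passed in 15 of the 37 fits without 1 library and under 3 alternatives, and the AVE difference (-1.83 ± 0.76, SE, adjusted p = 0.059) in 15 such fits and under 4 alternatives. Fitted with the pan-neuronal libraries alone, ace-1 passed as higher in PVD (1.32) and as lower in AVE (-1.69) and AVG (-1.33).

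Against all-cell libraries ace-1 was higher in PVD by 2.87 ± 0.78 (SE, adjusted p = 0.0093), in DD by 2.25 ± 0.70 (SE, adjusted p = 0.022), in VD by 2.05 ± 0.66 (SE, adjusted p = 0.026) and in AWB by 1.87 ± 0.68 (SE, adjusted p = 0.032). The PVD call was lost without PVD 63 (2.40) and the DD call without DD 83 (1.26), all-cell 29 (2.005) or all-cell 30 (2.005). For VD it was lost without VD 78 (1.76), all-cell 29 (1.81) or all-cell 30 (1.83), and for AWB without AWB 51 (1.75), all-cell 29 (1.63) or all-cell 30 (1.63). Between types, ace-1 was higher in PVD than in ASG, AVE and AWA, in VD than in ASG and AVE, and in DD and AWB than in ASG. These counts are low, between 0 and 67 per library.

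Muscle markers were high in the libraries with the most ace-1 in some types. In ASG, AWA, AWB, DD, PVD and VD, 6 of the 8 types, the library with the most ace-1 also had the highest sum over 12 body-wall muscle genes, PVD having only 2 libraries. AVE and AVG did not follow: AVE 42 had the most ace-1 (4.66 CPM) and the lowest sum (23814 CPM), AVE 40 had 0 ace-1 and the highest sum (30577 CPM), and AVG 43 had the least ace-1 (2.64 CPM) and the highest sum (16404 CPM). ASG 15, with 9.46 CPM of ace-1 against 1.33 to 1.60 in the other ASG libraries, had 27467 CPM of that list, against 8872 to 11132. DD 83, with 33.5 CPM of ace-1, had 27144 CPM of the list, against 14261 and 15371 in the other DD libraries. VD 78, with 22.1 CPM of ace-1, had 30231 CPM, against 10929 to 16213 in the other VD libraries. These 3 libraries stood well above the rest of their groups in both measures. PVD 63 had 20387 CPM of the list against 14301 in PVD 62, AWB 51 had 22136 against 7030 to 11446, and AWA 20 had 11963 against 7567 to 10469. The calls of ace-1 over all-cell libraries in PVD, DD, VD and AWB were given above. Each was lost without the library of that type with the most muscle signal. That library also had the most ace-1 of its type. The loss therefore cannot tell muscle signal apart from removal of the highest ace-1 value. The DD, VD and AWB calls were also lost without single all-cell libraries, as given above. Between groups the list did not follow ace-1, since it was highest in AVE (27809 ± 3544, SD, n = 3), where ace-1 was lowest. No body-wall gene was at 0 in any group. The part of muscle RNA in the ace-1 values was not tested.

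ace-2, the acetylcholinesterase gene known mainly from neurons, was highest among the types in AVE and in the GABAergic motor neurons. It had 49.6, 80.3 and 120.5 CPM in the AVE libraries, 100.1, 81.4, 55.5 and 76.7 CPM in the VD libraries and 64.9, 57.8 and 51.2 CPM in the DD libraries. AWB followed with 45.7 ± 10.1 CPM (SD, n = 5), then AWA with 26.0 ± 12.01 (SD, n = 4), AVG with 23.4 ± 24.3 (SD, n = 3), ASG with 17.005 ± 11.5 (SD, n = 4) and PVD with 14.9 ± 2.57 CPM (SD, n = 2), against 238 ± 31.8 in pan-neuronal (SD, n = 5) and 106 ± 147 CPM in all-cell libraries (SD, n = 4). All AVE, VD and DD libraries were above all AWA, ASG and PVD libraries, and no neighbours in the order differed past the threshold. ace-2 was higher in AVE, DD and VD than in ASG, and higher in VD than in AWA. It was lower than in pan-neuronal libraries in all types but AVE (-1.51 ± 0.63, SE, adjusted p = 0.061), from -1.60 ± 0.56 in VD (SE, adjusted p = 0.016) to -3.98 ± 0.90 in PVD (SE, adjusted p = 0.0017). The VD call was lost without VD 79 (-1.47) and with library totals alone (-1.28, adjusted p = 0.056, with 6.4e-06 to 0.056 over the alternatives), and the DD call was lost without DD 86 (-1.96). The AVE difference became a call in 14 of the 37 fits without 1 library and under 4 alternatives: without mitochondrial and rRNA genes (-1.60), with the 2 groups fitted alone (-1.38), in the DESeq2 Wald test (-1.56) and without AWA 20 and AWB 51 together (-1.58).

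The lower ace-2 in ASG (-2.62 ± 0.62, SE), AVG (-2.03 ± 0.69), AWA (-2.01 ± 0.60) and PVD (-2.80 ± 0.87) than in all-cell libraries rested on all-cell 27. Without it the log2 differences were -0.92 in ASG, -0.33 in AVG, -0.31 in AWA and -1.10 in PVD, and none passed. The AVG call was also lost without AVG 44 (-1.60) or AVG 45 (-1.79), and the PVD call without PVD 62 (-2.89) or PVD 63 (-2.64). In AWB (-1.22 ± 0.56, SE, adjusted p = 0.093) the difference passed without all-cell 29 (-1.57) or all-cell 30 (-1.54) and was 0.48 without all-cell 27, with the sign turned. Beside ace-2, all-cell 27 also held 107 CPM of unc-3, a transcription factor gene that selects cholinergic motor neuron fate, against 3.38 to 9.64 CPM in the other all-cell libraries. It held 434 CPM summed over 8 selector genes for cholinergic fate, against 54.1 to 88.6 CPM, and 30170 CPM of the body-wall muscle list, against 5804 to 15426 CPM. The selector list is not limited to motor neurons, since it holds lim-4, which sets AWB identity. The part of the selector and muscle genes in the ace-2 value was not tested.

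ace-3 was highest among the types in AVE and next in ASG. It had 76.6, 62.7 and 92.5 CPM in the AVE libraries, 58.3, 48.8, 14.7 and 34.0 CPM in the ASG libraries and 24.6, 29.3 and 35.9 CPM in the AVG libraries. The AVE libraries lay above all other single-type libraries, and ASG 15, the ASG library with the highest muscle sum, was the lowest of its group. The remaining 5 types had means between 12.38 ± 10.1 (PVD, SD, n = 2) and 20.4 ± 6.14 CPM (DD, SD, n = 3), against 251 ± 26.1 in pan-neuronal (SD, n = 5) and 16.96 ± 4.03 CPM in all-cell libraries (SD, n = 4). Below pan-neuronal libraries, the log2 differences ran from -1.70 ± 0.40 in AVE (SE, adjusted p = 0.0014) and -2.69 ± 0.38 in ASG (SE, adjusted p = 6.6e-07) to -4.47 ± 0.60 in PVD (SE, adjusted p = 3.2e-06). Against all-cell libraries ace-3 was higher in AVE by 2.18 ± 0.41 (SE, adjusted p = 0.00061) and in ASG by 1.18 ± 0.39 (SE, adjusted p = 0.015). The ASG call was lost with library totals alone (0.55, adjusted p = 0.20) and when the 2 groups were fitted alone (0.96, adjusted p = 0.093), with 0.0059 to 0.20 over the alternatives. Between types, ace-3 was higher in AVE than in each other type but ASG, and higher in ASG than in AWA, AWB, PVD and VD.

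ace-4, the gene upstream of ace-3, was high in AVE alone among the types. It had 34.5, 45.2 and 47.4 CPM in the AVE libraries, against 43.4, 30.03, 24.4, 28.7 and 30.7 CPM in the pan-neuronal libraries, and no other library passed 8.56 CPM. AVE was the only type not lower than pan-neuronal libraries in this gene (0.43 ± 0.45, SE, adjusted p = 0.49), the other 7 differing by -2.62 to -5.41. AVE was higher than all-cell libraries by 3.94 ± 0.54 (SE, adjusted p = 7.6e-06), with 42.4 ± 6.89 CPM in AVE (SD, n = 3) and 2.66 ± 1.25 CPM in all-cell libraries (SD, n = 4). It was also higher than each of the other 7 types, by 3.05 to 5.84. As given above, 0 of the 6 AVE markers were called higher in AVE than in pan-neuronal libraries. ace-4 was at 0 counts in 1 ASG and 1 PVD library.

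**Figure D3:**
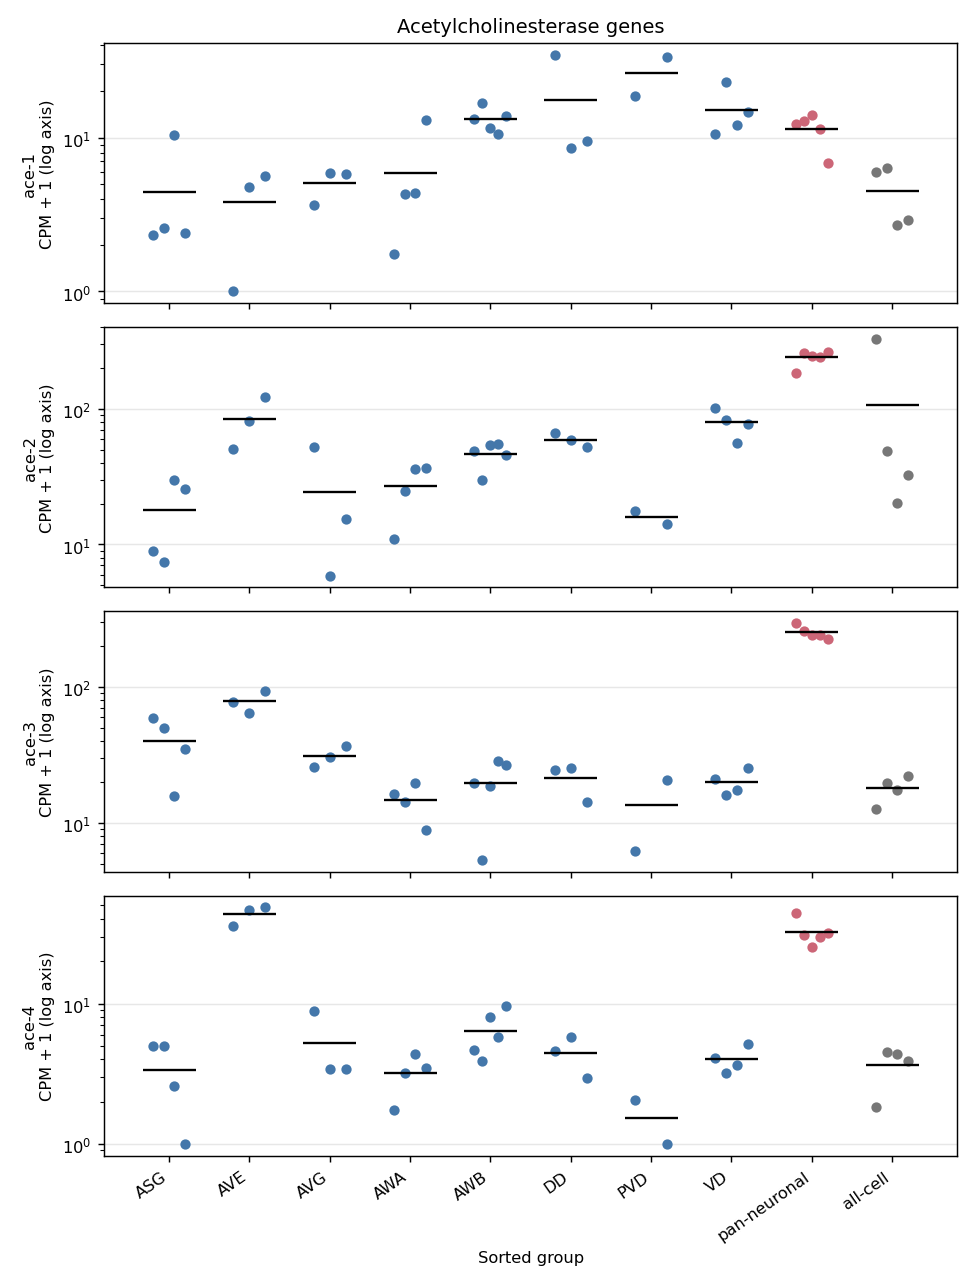
CPM + 1 (log axis) of ace-1, ace-2, ace-3 and ace-4 in each library, by sorted group, with a black bar at each group mean plus 1. ace-1 is highest in PVD, DD, VD and AWB, ace-4 is high in AVE and pan-neuronal libraries alone, and all-cell 27 (327 CPM) stands above the other all-cell libraries in ace-2.

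The make-up of the summed ace level, taken per kb, differed from type to type, as the stacked bars of ace shares show. ace-3 made up 65.2 ± 24.0% of it in ASG (SD, n = 4), 58.0 ± 21.5% in AVG (SD, n = 3) and 41.4 ± 7.75% in AVE (SD, n = 3), against 53.1 ± 4.11% in pan-neuronal (SD, n = 5) and 30.7 ± 18.8% in all-cell libraries (SD, n = 4). ace-2 made up 62.1 ± 5.51% in VD (SD, n = 4), 54.02 ± 8.24% in DD (SD, n = 3), 48.9 ± 4.37% in AWB (SD, n = 5) and 46.1 ± 10.9% in AWA (SD, n = 4), against 37.4 ± 5.55% in pan-neuronal (SD, n = 5) and 59.1 ± 23.9% in all-cell libraries (SD, n = 4). PVD stood out by ace-1, at 45.2% and 49.3% in its 2 libraries, above all other libraries. AVE stood out by ace-4, at 25.9 ± 3.29% (SD, n = 3), against 7.59 ± 1.54% in pan-neuronal (SD, n = 5) and 6.08 ± 4.29% in all-cell libraries (SD, n = 4), with 12.3% as the highest value of the other types. The ratio of ace-4 to ace-3 per kb was 0.64 ± 0.16 in AVE (SD, n = 3) and 0.41 ± 0.23 in AWB (SD, n = 5), with group means of 0.07 to 0.20 in the other types, 0.14 ± 0.02 in pan-neuronal (SD, n = 5) and 0.17 ± 0.07 in all-cell libraries (SD, n = 4). The AWB ratio rests on 2 to 4 counts of ace-4 per library.

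**Figure D4:**
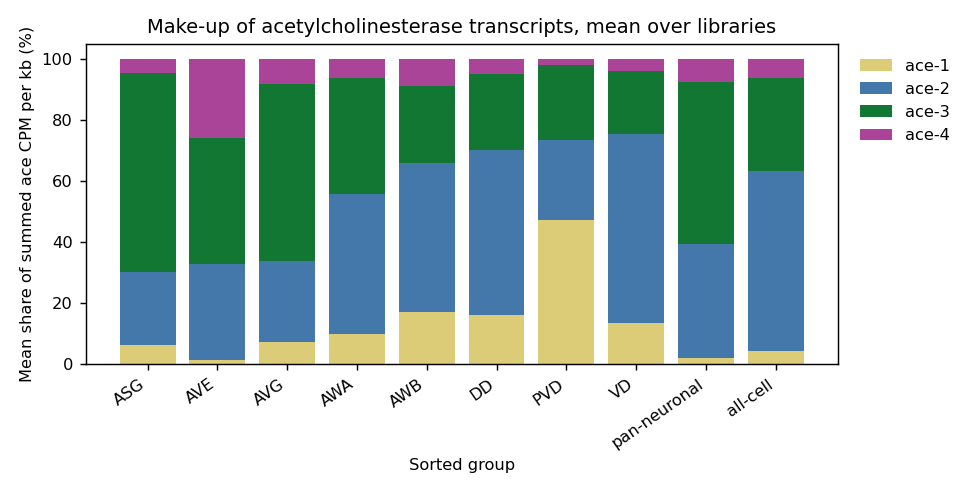
Mean share (%) of each ace gene in the summed ace CPM per kb, by sorted group, averaged over libraries. ace-3 leads in ASG and AVG, ace-2 in VD and DD, ace-1 in PVD, and ace-4 reaches 25.9% in AVE.

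The summed ace level per kb stood in changing proportion to unc-17. It was 3.60 ± 1.42 times the unc-17 level in ASG (SD, n = 4), 2.23 ± 0.45 times in DD (SD, n = 3), 2.02 ± 0.39 times in VD (SD, n = 4), 1.45 ± 0.13 times in PVD (SD, n = 2) and 1.17 ± 0.54 times in AVG (SD, n = 3). In AVE it was 0.84 ± 0.08 times (SD, n = 3), in AWB 0.74 ± 0.91 times (SD, n = 5) and in AWA 0.65 ± 0.47 times (SD, n = 4), against 0.66 ± 0.06 times in pan-neuronal (SD, n = 5) and 1.31 ± 0.12 times in all-cell libraries (SD, n = 4). The breakdown genes thus exceeded unc-17 in all ASG, DD, VD and PVD libraries, and unc-17 exceeded them in all AVE and pan-neuronal libraries. In AWB the highest ratio, 2.35, came from AWB 51, without which the mean was 0.34 ± 0.10 times (SD, n = 4), below that of every other group.

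**Figure D5:**
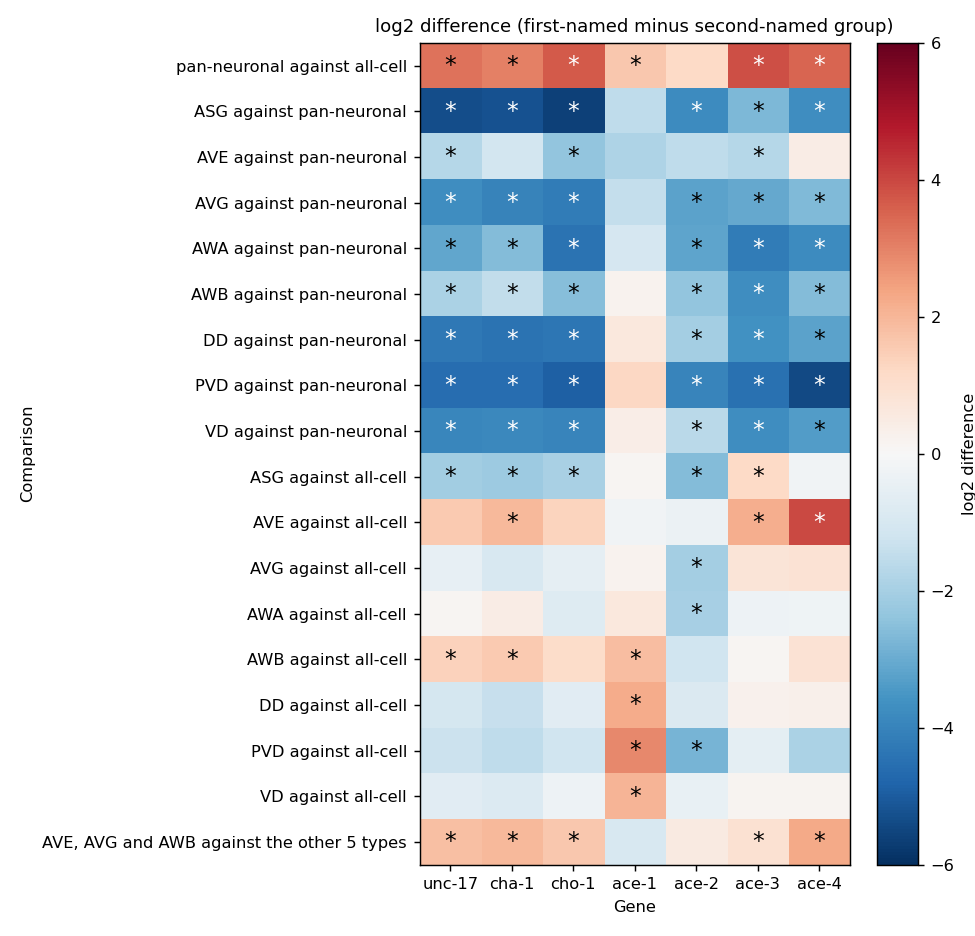
Heat map of the log2 difference of each gene (columns) in 18 comparisons (rows), the first-named minus the second-named group, with an asterisk at an adjusted p under 0.05 in edgeR's test. The rows against pan-neuronal libraries are blue throughout apart from ace-1 and the ace-4 cell of AVE (0.43). ace-1 is the only gene called higher than in all-cell libraries in DD, PVD and VD. In AWB it is called higher together with unc-17 and cha-1.

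The rest of the pathway was read from lists chosen for their function. Of 17 acetylcholine receptor genes, 15 were higher in pan-neuronal than in all-cell libraries and 0 lower (median log2 3.08), among them the acetylcholine-gated chloride channel gene acc-1 (3.85 ± 0.54, SE) and the muscarinic receptor gene gar-3 (3.42 ± 0.44, SE). In this comparison 32.2% of all genes tested were higher and 26.9% lower. Against pan-neuronal libraries 16 of the 17 were lower in ASG, 14 in AWB, 13 in AWA and 11 in AVG, but only 8 in AVE, 7 in PVD, 7 in VD and 6 in DD. Of all genes tested, 13.8% (PVD) to 28.5% (VD) were lower in these comparisons. The summed level of the 17 receptor genes was 1018 ± 130.01 CPM in DD (SD, n = 3), 769 ± 168 in VD (SD, n = 4), 694 ± 132 in AVE (SD, n = 3) and 71.1 ± 40.6 in ASG (SD, n = 4), against 1375 ± 79.3 in pan-neuronal (SD, n = 5) and 285 ± 307 CPM in all-cell libraries (SD, n = 4). DD and VD, low in unc-17, had the highest mean receptor sums of the types. The VD libraries (541 to 946 CPM) overlapped those of AVE (542 to 783), AVG (342 to 812) and PVD (368 to 1008). The DD libraries (867 to 1098 CPM) overlapped those of VD and PVD. This ranking was not tested. The types called cholinergic had 4 of the 17 receptor genes higher and 5 lower than the other 5 types, where 5.81% of all genes tested were higher and 5.62% lower. acr-3 was higher by 2.60 ± 0.49 (SE) and lev-1 lower by -3.08 ± 0.48 (SE).

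Of 10 matched genes for assembly and clustering of nicotinic receptors, 4 were higher and 1 lower in pan-neuronal than in all-cell libraries, a share of higher genes near the 32.2% of all genes tested. oig-4, which encodes an immunoglobulin-domain protein of receptor clusters, was higher by 3.73 ± 0.58 (SE) and the chaperone gene ric-3 by 2.35 ± 0.54 (SE). Of 12 tested genes for choline and acetyl-CoA supply, 4 were higher and 5 lower in the same comparison, again near the 32.2% higher over all genes tested. acly-1, which encodes ATP citrate lyase, an enzyme that makes acetyl-CoA, averaged 779.5 ± 32.6 CPM in pan-neuronal (SD, n = 5) and 133 ± 66.0 CPM in all-cell libraries (SD, n = 4), while its relative acly-2 averaged 30.5 ± 2.44 CPM in pan-neuronal (SD, n = 5) and 133 ± 26.8 CPM in all-cell libraries (SD, n = 4). The log2 difference was 2.56 ± 0.34 for acly-1 (SE) and -2.12 ± 0.39 for acly-2 (SE). The types called cholinergic had 1 of these 12 genes higher than the other types and 0 lower, near the 5.81% higher over all genes tested. That gene was snf-6, an acetylcholine and choline transporter gene (0.81 ± 0.18, SE, adjusted p = 0.0016). ASG had 6 of the 12 higher than pan-neuronal libraries and 1 lower, where 16.8% of all genes tested were higher and 20.8% lower. Among the 6 was chtl-1, a choline transporter-like gene, at 331 ± 138 CPM in ASG (SD, n = 4) and 41.2 ± 18.03 CPM in pan-neuronal libraries (SD, n = 5).

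All 8 selector genes for cholinergic fate were higher in pan-neuronal than in all-cell libraries, where 32.2% of all genes tested were higher. Among the types, their mean sum was highest in the GABAergic DD (1286 ± 332 CPM, SD, n = 3) and VD (690 ± 154 CPM, SD, n = 4). It was 531 ± 338 CPM in AWB (SD, n = 5), 502 ± 172 in AVG (SD, n = 3), 484 ± 113 in AVE (SD, n = 3) and 451 ± 115 in ASG (SD, n = 4). PVD had 170 ± 50.9 (SD, n = 2) and AWA 49.2 ± 22.8 CPM (SD, n = 4). The types called cholinergic had 3 of 8 higher and 2 lower than the other 5 types, where 5.81% of all genes tested were higher and 5.62% lower. lim-4, a homeobox gene that sets AWB identity, was higher by 2.94 ± 0.50 (SE), the homeobox gene lin-11 by 2.34 ± 0.31 (SE) and the homeobox gene unc-42 by 2.08 ± 0.44 (SE), while ttx-3 was lower by -4.41 ± 0.51 (SE). lim-4 is also on the AWB marker list, lin-11 on those of AVG and ASG, and unc-42 on that of AVE, so these were used to check the sorts. lin-11 averaged 469 ± 185 CPM in AVG (SD, n = 3) and 421 ± 117 CPM in ASG (SD, n = 4), a type outside the class. unc-3 had 20.5, 22.6 and 79.3 CPM in the AVE libraries and 23.0, 58.4, 8.89 and 16.3 CPM in the VD libraries, against 110.5 ± 8.13 in pan-neuronal (SD, n = 5) and 31.3 ± 50.5 CPM in all-cell libraries (SD, n = 4). AVE and VD overlapped, and the AVE mean was 21.5 CPM without AVE 42, the AVE library with the most cho-1.

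Genes of the other transmitters gave a scale for the supply genes, in CPM per kb, with the genes named here chosen after their values were seen. unc-25, which encodes the GABA-synthesizing glutamate decarboxylase, stood at 2152 ± 435 in DD (SD, n = 3) and 1211 ± 285 in VD (SD, n = 4), where unc-17 stood at 16.6 ± 3.20 and 21.6 ± 6.56. eat-4, the vesicular glutamate transporter gene, stood at 182 ± 113 in PVD (SD, n = 2) and 146 ± 52.3 in ASG (SD, n = 4), where unc-17 stood at 14.1 ± 3.93 and 8.22 ± 4.02. In AVE eat-4 stood at 44.1 ± 4.96 (SD, n = 3), with group means of 6.18 to 12.5 in AVG, AWA, AWB, DD and VD. In AWB unc-17 (89.3 ± 52.9, SD, n = 5) exceeded both unc-25 (36.1 ± 12.9) and eat-4 (12.5 ± 7.86). AVG differed, with more unc-25 (54.7 ± 16.7, SD, n = 3) than unc-17 (24.0 ± 10.3), and with 19.5 ± 5.18 of unc-47, the vesicular GABA transporter gene. For comparison, pan-neuronal libraries had 490 ± 25.3 CPM per kb of unc-25, 328 ± 23.2 of unc-17 and 144 ± 13.7 of eat-4 (SD, n = 5).

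Genes of tyramine synthesis and monoamine loading were also high in AVE. tdc-1, which encodes the tyrosine decarboxylase that makes tyramine, had 1155, 814 and 1513 CPM in the AVE libraries, against 237 ± 31.9 CPM in pan-neuronal (SD, n = 5) and 75.9 ± 36.5 CPM in all-cell libraries (SD, n = 4), and group means of 12.6 to 40.9 CPM in the other types. cat-1, the vesicular monoamine transporter gene, averaged 207 ± 24.2 CPM in AVE (SD, n = 3), against 140 ± 21.1 in pan-neuronal (SD, n = 5) and 8.52 ± 2.11 CPM in all-cell libraries (SD, n = 4). Per kb, tdc-1 stood at 461 ± 139 and unc-17 at 102 ± 17.7 in AVE (SD, n = 3). Published maps place tdc-1 in RIM and RIC neurons, not in AVE, and the part of such cells in the AVE values was not tested.

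The genes whose levels followed the members most closely over the 37 libraries were found by Pearson's r of log2(CPM + 1) among 10292 genes with a group mean of at least 20 CPM. These values are descriptions over libraries that share groups and depth. cha-1 was the closest to unc-17 (r = 0.98), followed by nanp-1 (0.94), cho-1 (0.93), nlp-21 (0.87) and flp-9 (0.87), of which nlp-21 and flp-9 encode neuropeptides. cha-1 was followed by nanp-1 (0.96), cho-1 (0.92), dmsr-4 (0.88) and T11F9.1 (0.86) after unc-17. For cho-1 the closest were the neuropeptide genes flp-9 (0.94) and nlp-9 (0.94), then unc-17 (0.93), C15C8.5 (0.92) and cha-1 (0.92). The 3 supply genes were thus each among the 5 closest to the others.

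The ace genes each had other neighbours. ace-2 was closest to dbl-1 (0.89), a gene of the TGF-beta ligand family, twk-17 (0.89), a potassium channel gene, Y41D4A.7 (0.89), unc-3 (0.89) and lgc-39 (0.88). ace-3 followed the ncRNA genes C18A3.18 (0.88) and C18A3.16 (0.86), trp-2 (0.87), a cation channel gene, ncs-5 (0.86) and ZK742.6 (0.85). C18A3.18 averaged 1661 ± 220 CPM in pan-neuronal libraries (SD, n = 5), with group means of 0.747 to 20.7 CPM elsewhere. C18A3.16 averaged 1945.5 ± 253 CPM in pan-neuronal libraries (SD, n = 5), with group means of 0 to 2.59 CPM elsewhere. Both ncRNA genes were thus high in the pan-neuronal group alone, and its part in their r with ace-3 was not tested. ace-4 followed Y6B3B.7 (0.92), C09G5.13 (0.90), the homeobox gene ceh-27 (0.90), Y41D4B.24 (0.90) and the forkhead gene fkh-10 (0.89), with ceh-27 at 162 ± 51.6 CPM in AVE (SD, n = 3) and 79.2 ± 13.7 CPM in pan-neuronal libraries (SD, n = 5). ace-1 had the weakest partners, Y45G5AM.6 (0.80), the potassium channel gene twk-12 (0.78), ark-1 (0.76), ptp-1 (0.76) and T13H5.1 (0.75). Its r was 0.09 with unc-17, 0.05 with cha-1 and 0.20 with cho-1, while ace-3 and ace-4 had an r of 0.79 with each other.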

How the data were processed

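Transcripts were measured by RNA-seq in 37 libraries. The deposited table of the authors holds whole-number read counts for each gene, not normalized, with a gene length. The tools named per the submitters' processing notes are featureCounts, STAR and SAMtools, with versions, settings, strand use and genome build not given in the sources used here. Groups came from the sample titles. The chi-square per degree of freedom between libraries within a group was 2.22 to 85.9 over 54 pairs, so none were merged.

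All genes were fitted in 1 edgeR quasi-likelihood model over the 37 libraries (edgeR 4.0.16, R 4.3.3, TMM factors, filterByExpr by group, common dispersion 0.226), in which 15181 genes and all 7 members passed the low-count filter. Group was the only term, and 46 contrasts were read, 28 of them between pairs of types. Calls used p adjusted by Benjamini-Hochberg over all genes tested, with a threshold of 0.05. Levels between genes used CPM per kb of the deposited length. Log2 differences carry standard errors and levels the SD over libraries. Low counts carry counting error, and library totals limit precision.

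The 7 members and the gene lists were chosen with earlier results of these data known. The named genes were all 7 members, up to 4 members per list and comparison with the largest difference among those called, and for each member the 5 genes of highest r. The alternatives were DESeq2 size factors, library totals alone, a fit without the mitochondrial and rRNA genes, no filter on low counts, the DESeq2 1.42.0 Wald test, the compared groups fitted alone and each library left out. Leaving out AWA 20 and AWB 51 together was added after seeing the data. The fit was tested on simulated data. unc-74 and opt-3 were not matched and not analysed here. No sequences are printed.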

Additional observations from a re-analysis of the deposited data

Results flagged for a closer look

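In 42 sets of libraries (7 genes in 6 groups of 4 or 5 libraries), 6 held a library far from the others of its group by Dixon's criterion for an extreme value, which chance alone meets in about 1 in 20 sets. The first 3 were high in all-cell 27. There unc-17 was at 168 CPM, against 25.4 to 37.2 CPM in the other all-cell libraries, cha-1 was at 152 CPM, against 26.5 to 34.6 CPM, and ace-2 was at 327 CPM, against 19.2 to 47.9 CPM. ace-1 was at 9.46 CPM in ASG 15, against 1.33 to 1.60 CPM in the other ASG libraries. ace-2 was at 184 CPM in pan-neuronal 1, against 242 to 263 CPM in the other pan-neuronal libraries. cho-1 was at 23.2 CPM in VD 79, against 34.2 to 35.8 CPM in the other VD libraries.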

How the results depend on the processing

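No call changed direction under the alternatives listed in the methods, and the class comparison of AVE, AVG and AWB with the other 5 types kept a count of 5 genes called in all of them. The count of members called in AVE against pan-neuronal libraries, 3 in all, was 5 without mitochondrial and ribosomal RNA genes, 6 when the 2 groups were fitted alone, 5 in the DESeq2 Wald test and 6 without AWA 20 and AWB 51 together. Against all-cell libraries, the count without AWA 20 and AWB 51 together was 5 in AVE and 2 in DD, and in the DESeq2 Wald test it was 2 in DD. With library totals alone it was 1 in AWB and 0 in VD, and when the 2 groups were fitted alone it was 0 in AVG, AWA, AWB and DD and 1 in PVD. For those types the DESeq2 Wald test over all libraries called 1 in AVG, 1 in AWA, 4 in AWB and 1 in VD, and edgeR gave an unadjusted p under 0.05 for 1 in AVG, 1 in AWA, 5 in AWB, 2 in DD and 1 in VD. When AWB and all-cell libraries were fitted alone, ace-1 had no result. It is counted there as not called, without having been tested. Leaving out each library in turn gave 2 to 5 members called in AVE against pan-neuronal libraries. Against all-cell libraries it gave 2 to 5 in ASG, 2 to 5 in AVE, 0 to 1 in AVG, 1 to 4 in AWB, 0 to 1 in DD, 0 to 2 in PVD and 0 to 1 in VD. Without either PVD library the remaining one is assumed to vary like the other groups. The cause of these changes was not tested. Library totals alone moved the median of all genes by -0.47 between pan-neuronal and all-cell libraries and by -0.56 to 0.35 in the comparisons of types with pan-neuronal or all-cell libraries. No paired analysis was possible because the groups share no replicate numbers. Over all alternatives and left-out libraries, 175 results for pairs of types lost their call and 71 gained one, against 2471 that did neither. Depth limits ace-4 and ace-1, with ace-4 at 0 to 9 counts per library in ASG, AVG, AWA, AWB, PVD and all-cell libraries.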
